A study of Mus musculus with 18 samples.

Results

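The 41 genes described here encode the machinery that copies DNA and the factors that commit a cell to the G1/S transition. They were chosen by gene symbol from the deposited tables of mouse esophageal organoids, and all 41 of the 41 listed symbols were found among the 24421 rows of each of 3 tables. Every one passed the filter on low counts in each of the 3 deposited comparisons, so no member is missing from the counts below. By role they are 4 origin licensing factors, 6 subunits of the MCM helicase, 6 helicase activation factors, 5 polymerase and primase subunits, 6 clamp and clamp loader subunits, 4 single-strand binding and Okazaki processing proteins, 4 enzymes of deoxynucleotide supply, 3 G1/S regulators and 3 proteins that rebuild chromatin at the fork.

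Organoids are cultures of dissociated tissue grown in a basement membrane gel. All 18 libraries were labelled Trp53-/-, Myc OE and sgCdkn2a, that is, without Trp53, with Myc overexpressed and with a guide against Cdkn2a. The premalignant groups were sgTgfbr2 (n = 4, as sgTgfbr2_1 and sgTgfbr2_2 with 2 libraries each) and sgScr (n = 3), a scrambled control guide. The tumor groups were sgTgfbr2 (n = 2) and sgScr (n = 3). The last table held tumor sgTgfbr2 organoids given the calcium channel blocker pinaverium bromide (PB) at 2 µM (n = 3) and the same kind of organoids given DMSO vehicle (n = 3), after 72 h of culture. The product of Tgfbr2 is the receptor that binds TGF-beta first, and TGF-beta arrests growth in squamous epithelium. The growth medium listed for every library held EGF, FGF10, Noggin, R-spondin, Wnt-3A and 2 µM A83-01, which blocks signalling by the type I receptor for TGF-beta, in the control groups as well. The labels do not say whether the numbers 1 and 2 are guides or lines, nor whether the replicates were grown separately or came from different mice. P-values therefore measure only how far these libraries differ, and part of that may be technical.

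Replication starts when the origin recognition complex, Cdc6 and Cdt1 load the MCM ring onto DNA in G1. Cdc45 and the GINS complex then switch the ring on as a helicase, primase and the polymerases copy the strands, and the PCNA clamp, loaded by the RFC complex, holds the polymerases in place. Most of these genes are targets of the E2F transcription factors, which are released when cyclin D and cyclin E kinases inactivate the retinoblastoma protein. In squamous epithelium the program runs in basal cells and is shut off as cells move up and differentiate, and TGF-beta is known to restrain it through CDK inhibitors.

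The libraries held 14993749 to 21784140 counts and 15565 to 16713 genes with a count. Levels are given as CPM, counts scaled to the total of each library. Tgfbr2 itself had 128 and 131 CPM in premalignant sgTgfbr2_1, 105 and 86.2 CPM in sgTgfbr2_2, and 188, 179 and 219 CPM in premalignant sgScr. In the tumor table it had 67.5 and 71.2 CPM in sgTgfbr2 and 120.2, 112 and 129 CPM in sgScr, so sgTgfbr2 libraries were below their sgScr libraries at both stages with transcript still present. The guides' target sites are not given, so this checks the amount of transcript only. The libraries labelled tumor sgTgfbr2 and tumor sgScr stood apart from all others. By the sum of 10 skeletal muscle genes only tumor sgScr stood far apart, at 18928 to 19618 CPM. Tumor sgTgfbr2, at 17.95 to 18.9 CPM, was close to the 13 other libraries, which had at most 15.9 CPM. Myc had 51.8 and 93.3 CPM in tumor sgTgfbr2 and 41.8 to 47.5 CPM in tumor sgScr, against 289.8 CPM or more elsewhere. Cdkn2a, the target of a guide in every group, had 168 and 136 CPM in tumor sgTgfbr2 and 0.528, 1.11 and 0 CPM in tumor sgScr, against 266 to 382 CPM elsewhere. Fibroblast markers summed to 2476 to 2552 CPM in tumor sgTgfbr2 and 3349 to 3537 CPM in tumor sgScr, against at most 4.51 CPM in the 13 other libraries, the PB and vehicle tumor organoids included, and endothelial markers to 99.9 to 108 CPM in tumor sgTgfbr2 and 121 to 142 CPM in tumor sgScr, against at most 2.12 CPM. These 5 libraries are labelled organoids, but their markers differ from those of the other organoid libraries.

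The promoters of 4 genes are shown because these genes mark the ends of the pattern below. Mcm5 and Orc1 were lower in premalignant sgTgfbr2 and under PB and higher in tumor sgTgfbr2, Pola1 was lower in premalignant and tumor sgTgfbr2 and not called under PB, and Rfc1 passed the threshold in none of the 3 deposited comparisons. They were chosen after their values were seen. Each line gives the 250 bases before the RefSeq start (GRCm38.p6), 5′ to 3′ on the gene's strand, with motif matches in capitals. The windows are chr8:75109259-75109508, plus strand, for Mcm5, chr4:108579204-108579453, plus strand, for Orc1, chrX:93632156-93632405, minus strand, for Pola1, and chr5:65335640-65335889, minus strand, for Rfc1.
Mcm5: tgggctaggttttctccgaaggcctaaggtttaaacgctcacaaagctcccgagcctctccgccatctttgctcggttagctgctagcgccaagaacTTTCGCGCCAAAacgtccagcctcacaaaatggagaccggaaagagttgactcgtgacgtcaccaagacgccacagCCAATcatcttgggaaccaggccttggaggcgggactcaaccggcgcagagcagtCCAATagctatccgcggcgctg
Orc1: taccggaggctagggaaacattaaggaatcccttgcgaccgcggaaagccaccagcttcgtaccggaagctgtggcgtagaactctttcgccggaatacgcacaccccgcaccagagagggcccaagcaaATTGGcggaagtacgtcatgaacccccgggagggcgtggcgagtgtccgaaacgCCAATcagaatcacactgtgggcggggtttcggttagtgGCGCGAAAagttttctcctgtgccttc
Pola1: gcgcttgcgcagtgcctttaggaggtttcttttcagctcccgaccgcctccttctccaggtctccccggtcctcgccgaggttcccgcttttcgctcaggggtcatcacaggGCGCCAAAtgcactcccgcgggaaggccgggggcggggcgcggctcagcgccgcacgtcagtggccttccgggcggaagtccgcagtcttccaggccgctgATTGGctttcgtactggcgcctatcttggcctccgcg
Rfc1: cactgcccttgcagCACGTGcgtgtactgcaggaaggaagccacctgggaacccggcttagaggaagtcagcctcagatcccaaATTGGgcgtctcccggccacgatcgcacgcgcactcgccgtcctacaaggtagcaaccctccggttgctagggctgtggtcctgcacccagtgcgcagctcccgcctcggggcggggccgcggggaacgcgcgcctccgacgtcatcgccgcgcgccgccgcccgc
Capitals mark the E2F-like motif TTTNNCGC, the NF-Y box CCAAT and the MYC E-box CACGTG, searched on both strands.

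Mcm5 held 2 overlapping E2F-like matches, TTTCGCGC and GCGCCAAA on opposite strands, starting 153 and 149 bases before the start, and NF-Y boxes at 77 and 22 bases. Orc1 held an E2F-like match GCGCGAAA at 27 bases and NF-Y boxes at 120 and 66 bases. Pola1 also held an E2F-like match, GCGCCAAA at 138 bases, with an NF-Y box at 37 bases, while Rfc1 held an E-box at 236 bases and an NF-Y box at 166 bases. The RefSeq table gave 39 promoters for 34 of the 41 genes. The E2F-like motif was in 10 of these 39 promoters (25.6%), against 4.28% of all 32851 promoters of the table, and the NF-Y box in 23 (59.0%), against 33.8%. The E-box CACGTG was in 6 (15.4%), against 6.02%, and TTTGAA, a CHR-like motif of mitotic genes, in 4 (10.3%), against 16.0%. Median GC content was 61.2% in the 39 promoters and 52.4% in all promoters. Among promoters with at least 50% GC, the E2F-like motif was in 10 of 32, against 5.79% of all 19344, the NF-Y box in 18 of 32, against 32.2%, the E-box in 6 of 32, against 7.83%, and TTTGAA in 2 of 32, against 8.53%. Across the set the E2F-like match did not divide the genes by call. It was also in promoters of Cdc6 and Uhrf1, which were lower in premalignant sgTgfbr2. Promoters of Mcm6, Mcm7, Rfc3 and Gins3, which were not called there, held it too. None was found for Ccne1, E2f1, Fen1, Cdt1, Pcna and Mcm3, which were lower there. A match describes letters in this window and not a bound site.

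The summed level of the 41 genes was lower with sgTgfbr2 in premalignant libraries and higher with it in tumor libraries, and it was lower under PB. The sum was 3499 and 3277 CPM in premalignant sgTgfbr2_1, 2960 and 3124 CPM in sgTgfbr2_2, and 4492, 4600 and 4088 CPM in premalignant sgScr. Tumor sgTgfbr2 libraries had 1404 and 1417 CPM and tumor sgScr libraries 668, 691 and 679 CPM. PB libraries had 2128, 2091 and 2096 CPM and vehicle libraries 3238, 3269 and 3284 CPM. The groups did not overlap in any of the 3 tables. The means were 3215 ± 229 CPM in premalignant sgTgfbr2 (SD, n = 4) and 4393 ± 269.9 CPM in premalignant sgScr (SD, n = 3), 1411 ± 9.15 CPM in tumor sgTgfbr2 (SD, n = 2) and 679 ± 11.5 CPM in tumor sgScr (SD, n = 3), and 2105 ± 19.99 CPM with PB and 3264 ± 23.5 CPM with vehicle (SD, n = 3 each). In bulk RNA, fewer cells in S phase and less of these transcripts per cell cannot be told apart.

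Genes of mitosis act later in the cycle. The sum of 29 of them was 4983 to 6380.1 CPM in premalignant sgTgfbr2 and 4974 to 5199.5 CPM in premalignant sgScr, which overlapped. It was 799 to 818 CPM in tumor sgTgfbr2 and 729 to 787 CPM in tumor sgScr, and 4916 to 4953 CPM with PB and 5934 to 6026 CPM with vehicle, so under PB both sums were lower. Set against the mitosis sum, the 41 genes stood at a ratio of 0.702 and 0.645 in premalignant sgTgfbr2_1, 0.479 and 0.490 in sgTgfbr2_2, and 0.890, 0.885 and 0.822 in premalignant sgScr. The ratio was 1.76 and 1.73 in tumor sgTgfbr2 and 0.916, 0.922 and 0.862 in tumor sgScr. Under PB it was 0.433, 0.423 and 0.423, and 0.541, 0.542 and 0.553 with vehicle. The ratio moved in the same direction as the sum in each table.

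**Figure D1:**
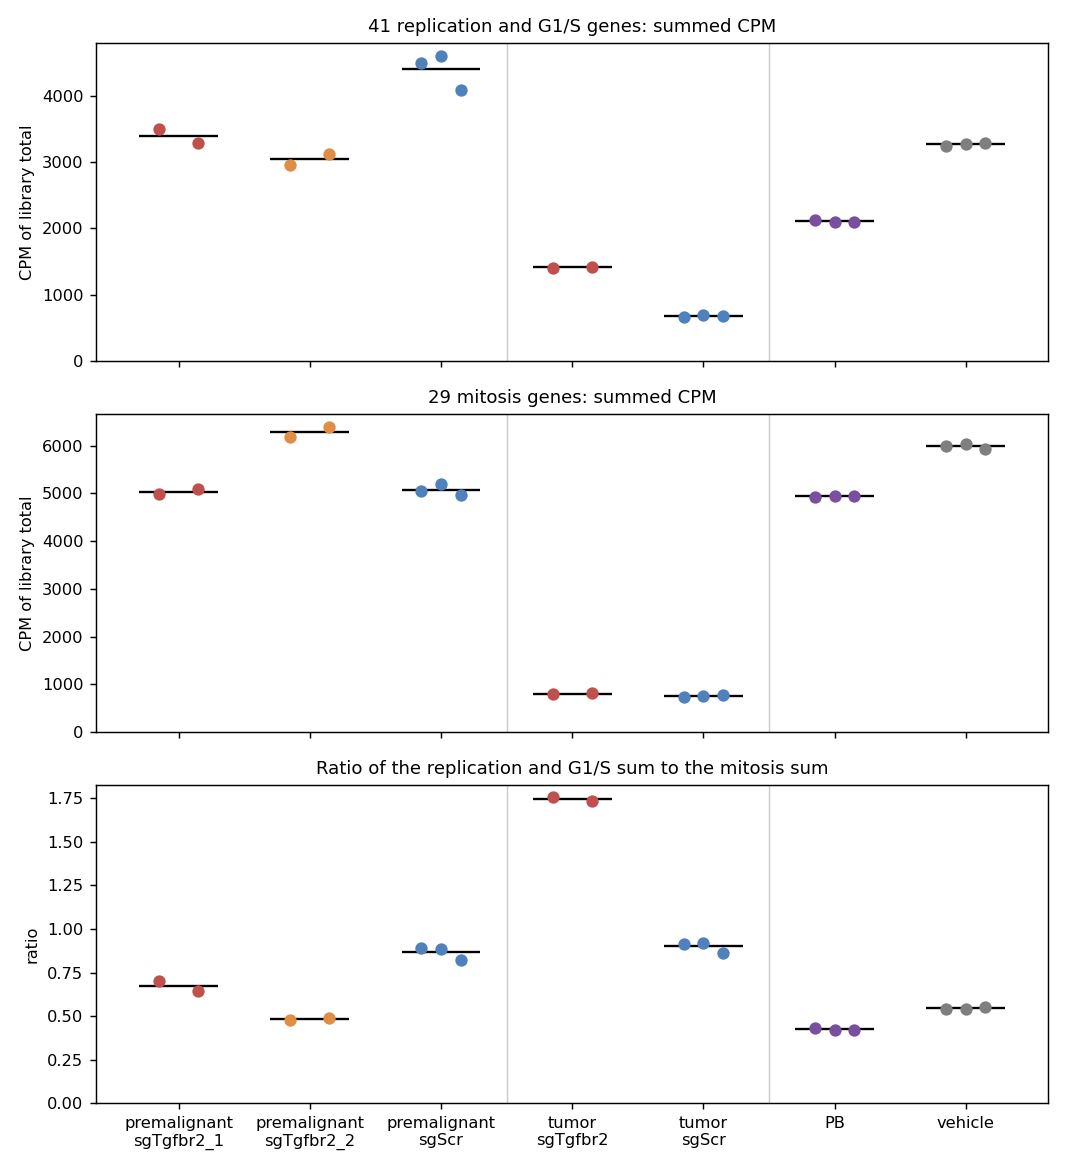
Summed CPM of the library total for the 41 replication and G1/S genes (top), for 29 mitosis genes (middle) and their ratio (bottom), with 1 point per library and the group mean as a line. The 2 tumor sgTgfbr2 libraries had the highest ratios, 1.76 and 1.73, and the PB libraries the lowest, down to 0.423.

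In premalignant organoids with sgTgfbr2, 31 of the 41 genes were lower and 0 were higher, with a median log2 fold change of -0.62 against sgScr. Calls are adjusted p under 0.05 by edgeR's quasi-likelihood test with Benjamini-Hochberg adjustment over all 13098 genes tested, of which 23.5% were lower and 22.7% higher. DESeq2 and limma-voom called 0 higher as well, 0 were higher at an unadjusted p under 0.05, and the lower count was 31 and 32. The authors' deposited table had 0 higher and 31 lower.

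Licensing factors were lower without exception, 4 of 4. Cdt1, which brings the MCM ring to origins, had 80.0 and 74.6 CPM in sgTgfbr2_1, 87.3 and 86.5 CPM in sgTgfbr2_2, and 103, 104 and 109 CPM in sgScr. All 4 sgTgfbr2 libraries lay below every sgScr library, and the change was -0.43 ± 0.08 (log2, SE; adjusted p = 0.00334). Orc1, the largest subunit of the origin recognition complex, changed by -0.91 ± 0.13 (adjusted p = 7.51e-04), Cdc6 by -1.06 ± 0.14 (adjusted p = 6.10e-04) and Orc6 by -0.50 ± 0.10 (adjusted p = 0.00296). Orc1 and Cdc6 fall outside the rule for named genes and are given because their values stood out.

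Of the 6 subunits of the MCM ring, 4 were called lower. Mcm5 (chr8:75109569-75128439, plus strand) had 85.3 and 82.6 CPM in sgTgfbr2_1, 76.9 and 81.5 CPM in sgTgfbr2_2, and 162, 161 and 149 CPM in sgScr. The highest sgTgfbr2 library was far under the lowest sgScr library, and the change of -1.02 ± 0.08 had the smallest adjusted p of the 41 genes (7.13e-05). Mcm3 had 152, 136, 133 and 130.02 CPM in the sgTgfbr2 libraries and 222, 236 and 209 CPM in sgScr, a change of -0.76 ± 0.09 (adjusted p = 3.64e-04). Mcm4 had 113, 101, 109.8 and 103 CPM in sgTgfbr2 and 180.5, 184 and 154 CPM in sgScr, a change of -0.77 ± 0.10 (adjusted p = 4.26e-04), and neither gene's groups overlapped. Mcm2 was also lower, at -0.67 ± 0.10. The other 2 subunits of the same hexamer did not pass. Mcm7 (chr5:138164583-138172422, minus strand) had 223 and 209.6 CPM in sgTgfbr2_1, 167 and 178 CPM in sgTgfbr2_2, and 202, 207 and 180.1 CPM in sgScr. Its sgTgfbr2_1 libraries lay above all sgScr libraries and its sgTgfbr2_2 libraries below them, and the pooled change was -0.08 ± 0.12 (adjusted p = 0.587). Mcm6 changed by -0.04 ± 0.09 (adjusted p = 0.727).

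Of the helicase activation factors, 5 of 6 were lower, all but Gins3. Gins4, a GINS subunit, had 48.5, 46.7, 42.9 and 48.7 CPM in sgTgfbr2 and 59.9, 55.5 and 52.4 CPM in sgScr, which did not overlap. Its change of -0.33 ± 0.09 (adjusted p = 0.0172) was no longer called without sgScr replicate 1 (adjusted p = 0.0831) or replicate 2 (adjusted p = 0.0588). Mcm10, which helps to start the helicase, changed by -0.75 ± 0.12 and Cdc45 by -0.41 ± 0.12. Gse1, on the other strand, covers 67.3% of the exon bases of Gins2, whose counts are therefore uncertain.

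Of the 5 polymerase and primase genes, the 3 that encode subunits of polymerase alpha-primase, which lays down primers, were lower. Its further subunit Prim2 is not among the 41 genes. Pold1 and Pole, the catalytic subunits of the main fork polymerases, did not pass, although Pole was called lower in sgTgfbr2_2 alone. Of the accessory subunits of those polymerases, which are not among the 41 genes, Pold2 (-0.57 ± 0.09, adjusted p = 0.00127) and Pole3 (-0.94 ± 0.11, adjusted p = 2.62e-04) were lower. The remaining accessory subunits are not described here, so these genes do not stand for all of them. Pola1, the catalytic subunit of polymerase alpha, had 72.4, 57.9, 51.9 and 55.0 CPM in sgTgfbr2 and 99.6, 102 and 81.9 CPM in sgScr, a change of -0.74 ± 0.14 (adjusted p = 0.00227). Prim1, the primase, had 47.7, 45.2, 51.6 and 56.2 CPM in sgTgfbr2 and 70.8, 74.8 and 60.0 CPM in sgScr (-0.52 ± 0.12, adjusted p = 0.00636). Neither gene's groups overlapped. Pold1 had 87.3 and 92.7 CPM in sgTgfbr2_1, 112 and 112 CPM in sgTgfbr2_2, and 97.8, 91.8 and 93.8 CPM in sgScr. Both sgTgfbr2_2 libraries were the highest of the 7, and the pooled change was 0.02 ± 0.11 (adjusted p = 0.869).

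The clamp was called lower, and of its loader 1 subunit was. Pcna (chr2:132249162-132253314, minus strand), the sliding clamp, had 237 and 222 CPM in sgTgfbr2_1, 162 and 187 CPM in sgTgfbr2_2, and 364, 397 and 309 CPM in sgScr. No sgTgfbr2 library reached the lowest sgScr library, and the change was -0.89 ± 0.15 (adjusted p = 0.00140). Of the 5 loader subunits, Rfc4 alone was lower (-0.45 ± 0.12, adjusted p = 0.0124). Rfc1, the large loader subunit, stood at 0.16 ± 0.10 (adjusted p = 0.218). In CPM its sgTgfbr2 libraries all lay above the sgScr libraries, with means of 193 and 164 CPM. Rfc2 stood at -0.05 ± 0.12, Rfc3 at -0.25 ± 0.10 (adjusted p = 0.0567, with groups that did not overlap) and Rfc5 at -0.14 ± 0.21. Rfc2 and Rfc5 were called lower in sgTgfbr2_2 alone.

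All 4 single-strand binding and Okazaki processing genes were lower. Fen1 (chr19:10199132-10204169, minus strand), the flap endonuclease that trims Okazaki fragments, had 63.0, 55.0, 43.8 and 51.9 CPM in sgTgfbr2 and 107, 119 and 90.4 CPM in sgScr. The groups lay apart, with a change of -1.06 ± 0.14 (adjusted p = 5.74e-04). An antisense gene, Gm10143, covers 78.8% of the exon bases of Fen1 on the other strand and was not analysed here, and since the strand setting of the counting is not given, reads of the 2 genes cannot be told apart. Rpa1, the large subunit of the single-strand binding protein RPA, had 107 and 103 CPM in sgTgfbr2_1, 144 and 138 CPM in sgTgfbr2_2, and 185, 191 and 178 CPM in sgScr. It was lower in both numbers but less so in sgTgfbr2_2, with a pooled change of -0.65 ± 0.13 (adjusted p = 0.00365).

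Of the 4 genes that supply deoxynucleotides, 3 were lower. Rrm1, the large subunit of ribonucleotide reductase, had 304, 285, 252 and 298 CPM in sgTgfbr2 and 419, 436 and 391 CPM in sgScr, which did not overlap (-0.62 ± 0.10, adjusted p = 0.00121). Its partner Rrm2, the subunit that is limiting in S phase, had 154 and 135 CPM in sgTgfbr2_1, 82.0 and 86.1 CPM in sgTgfbr2_2, and 184, 192 and 154 CPM in sgScr. The groups lay apart by a narrow margin, and the call (-0.70 ± 0.22, adjusted p = 0.0248) was lost without sgScr replicate 1 (0.0783), sgScr replicate 2 (0.1000) or sgTgfbr2_2 replicate 2 (0.0676). It was also lost with a replicate block (0.0643). Tyms, thymidylate synthase, was not called with both numbers pooled (-0.80 ± 0.33, adjusted p = 0.0724) and is described with the numbers below. A pseudogene, Tyms-ps, is in the tables, so the reads of Tyms may be divided between them.

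The 3 G1/S regulators and the 3 chromatin genes were all lower. Ccne1, cyclin E1, had 34.7, 35.3, 33.9 and 35.6 CPM in sgTgfbr2 and 63.6, 67.4 and 56.9 CPM in sgScr. The 4 sgTgfbr2 libraries were within 2 CPM of each other and under every sgScr library (-0.92 ± 0.09, adjusted p = 1.80e-04). E2f1, an activator of the whole program, had 46.0 and 45.5 CPM in sgTgfbr2_1, 35.8 and 32.8 CPM in sgTgfbr2_2, and 74.4, 73.4 and 71.3 CPM in sgScr (-0.94 ± 0.13, adjusted p = 5.63e-04). Uhrf1, which passes DNA methylation to the new strand, had 154, 143, 128 and 124 CPM in sgTgfbr2 and 171, 151 and 160.0 CPM in sgScr. Those groups overlapped by 1 library, and the call (-0.30 ± 0.09, adjusted p = 0.0285) was lost in 4 of the 7 fits that left out 1 library, with adjusted p up to 0.119 (without sgScr replicates 1 and 2 and sgTgfbr2_2 replicates 1 and 2). It was also lost with library totals (adjusted p = 0.0804) and with a replicate block (adjusted p = 0.0718).

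**Figure D2:**
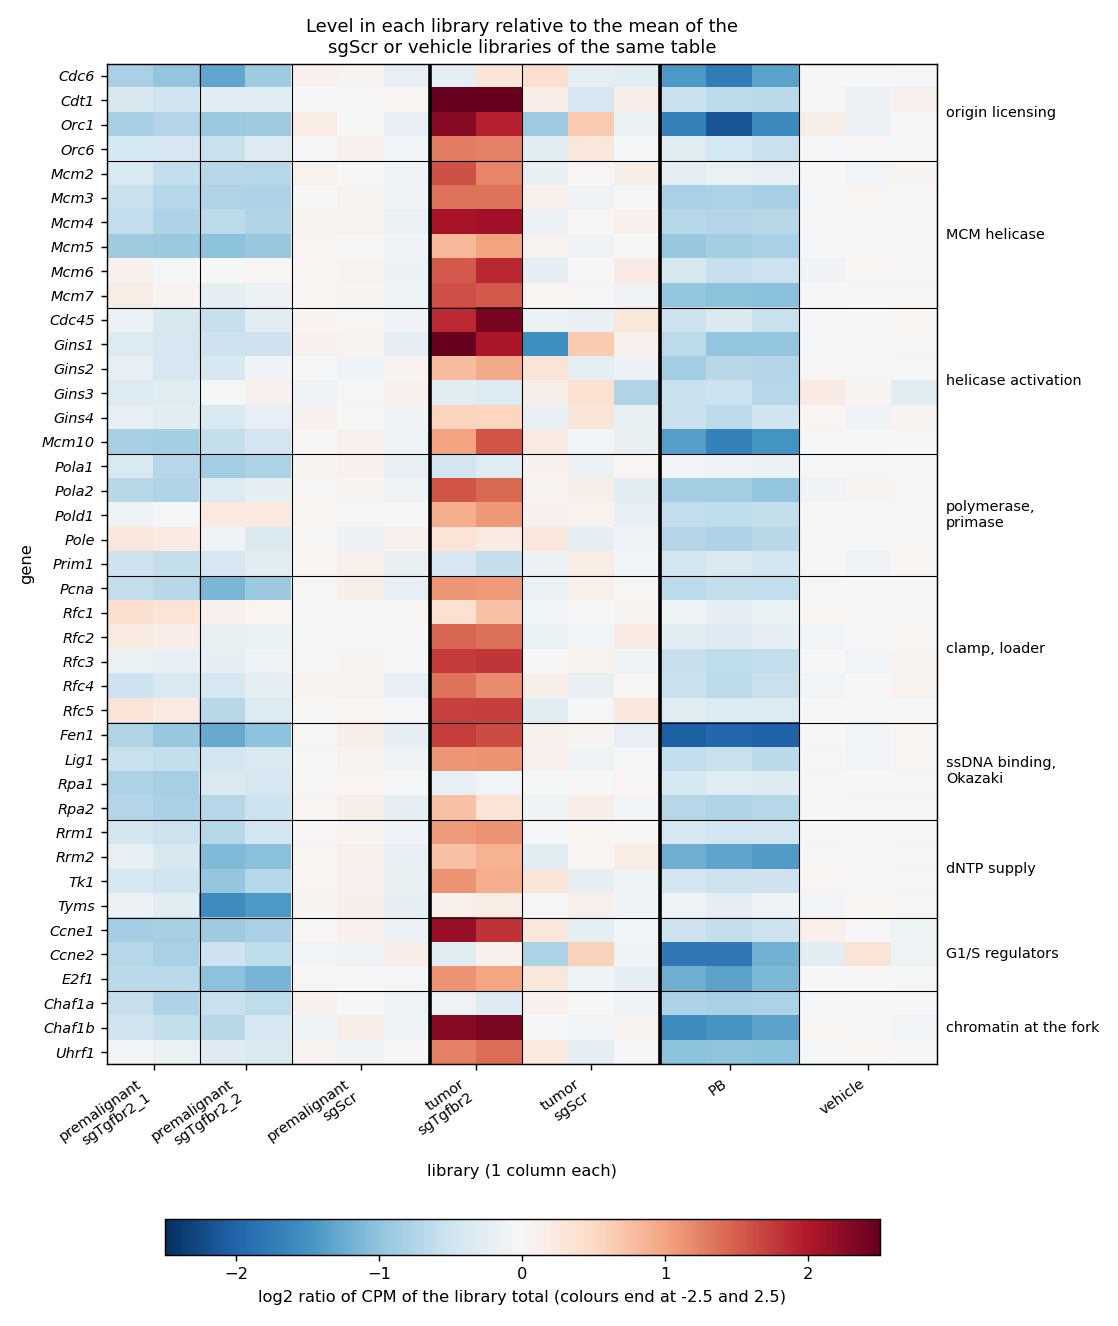
Log2 ratio of the CPM of each gene in each library (1 column per library) to the mean of the sgScr or vehicle libraries of the same table, with genes grouped by role. Premalignant sgTgfbr2 and PB columns are mostly blue (lower), with Mcm6, Mcm7 and most Rfc genes pale in the premalignant table, and tumor sgTgfbr2 columns are mostly red (higher) apart from genes such as Prim1 and Pola1.

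Of 90 further replication and G1/S genes, a list that also holds CDK inhibitors and genes of the retinoblastoma family, 53 were lower and 6 were higher in premalignant sgTgfbr2, with a median of -0.35. Among the lower ones were Orc2, an origin recognition subunit (-1.42 ± 0.12), and Mybl2, a cell cycle transcription factor (-1.09 ± 0.10). The higher ones included the CDK inhibitors Cdkn1b (1.13 ± 0.16) and Cdkn1c (1.07 ± 0.13), and also Cdk6, a G1 kinase (0.95 ± 0.15). Cdkn1b had 83.6 and 83.9 CPM in sgTgfbr2_1, 124 and 113 CPM in sgTgfbr2_2, and 41.6, 39.2 and 51.8 CPM in sgScr. Of 29 mitosis genes, 4 were higher and 4 lower, with a median of -0.03, and Mki67, the proliferation marker, was higher (0.46 ± 0.09, adjusted p = 0.00317) while Birc5, survivin, was lower (-0.80 ± 0.12, adjusted p = 9.45e-04). Sums of basal squamous markers also differed in these libraries, at 5914 to 8850 CPM in sgTgfbr2 and 10147 to 10832 CPM in sgScr, and suprabasal markers stood at 55.6 to 107 CPM in sgTgfbr2 and 177 to 214 CPM in sgScr. Their part in the result was not tested.

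The sgTgfbr2 numbers 1 and 2 were each compared with sgScr. In sgTgfbr2_2, 35 genes were lower and 0 higher than in sgScr (29.3% and 28.9% of 13438 genes tested), and in sgTgfbr2_1, 31 were lower and 1 higher (26.9% and 24.5%). These comparisons share the sgScr libraries. The 1 higher gene was Rfc1, which lies outside the rule for named genes, with 216 and 209.9 CPM in sgTgfbr2_1 and 166, 161 and 167 CPM in sgScr (0.30 ± 0.08, adjusted p = 0.00451).

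Tested directly, sgTgfbr2_2 had 10 genes lower and 3 higher than sgTgfbr2_1 (13.1% and 13.2% of all genes tested). Deoxynucleotide supply made up 3 of the 10. Tyms (chr5:30058202-30073617, minus strand), which makes the thymidine nucleotide, had 20.2 and 22.3 CPM in sgTgfbr2_2 and 54.7 and 49.4 CPM in sgTgfbr2_1, beside 63.1, 66.6 and 51.9 CPM in sgScr. Number 2 was thus far below both other groups, and the difference was -1.29 ± 0.14 (adjusted p = 1.96e-05). Rrm2 differed by -0.78 ± 0.12 (adjusted p = 3.79e-04) and Tk1, thymidine kinase, by -0.36 ± 0.12 (adjusted p = 0.0439). Rfc5, a small clamp loader subunit, had 53.2 and 67.6 CPM in sgTgfbr2_2 and 107 and 101 CPM in sgTgfbr2_1, beside 84.9, 88.9 and 83.9 CPM in sgScr. The sgScr libraries lay between the numbers, so the pooled fold hides a difference of -0.78 ± 0.12 (adjusted p = 2.96e-04). Wsb2, which overlaps 10.7% of the exon bases of Rfc5 on the other strand, differed likewise, at 112 and 119 CPM in sgTgfbr2_2 and 195 and 192 CPM in sgTgfbr2_1. Whether reads of Wsb2 enter the counts of Rfc5 was not tested.

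The genes that were higher in sgTgfbr2_2 than in sgTgfbr2_1 were Pold1, Pola2 and Rpa1. Pola2, the regulatory subunit of polymerase alpha, had 47.1 and 50.2 CPM in sgTgfbr2_2 and 37.0 and 35.3 CPM in sgTgfbr2_1, beside 60.9, 62.8 and 55.7 CPM in sgScr, a difference of 0.43 ± 0.11 (adjusted p = 0.0122). Rpa1 differed by 0.43 ± 0.09 (adjusted p = 0.00325) and Pold1 by 0.32 ± 0.09 (adjusted p = 0.0174). The other genes lower in sgTgfbr2_2 were Pole, E2f1, Pcna, Rfc2, Mcm7 and Rfc1, by -0.29 to -0.44. With 2 libraries per number these counts rest on single libraries. Higher calls became 1 without sgTgfbr2_1 replicate 1, 0 without its replicate 2 and 1 without sgTgfbr2_2 replicate 2, and lower calls became 3, 5, 5 and 6 without sgTgfbr2_1 replicates 1 and 2 and sgTgfbr2_2 replicates 1 and 2. Of the mitosis genes, 17 of 29 were higher in sgTgfbr2_2 and 0 were lower, including Prc1, a spindle midzone protein (0.61 ± 0.09), and Top2a, topoisomerase II alpha (0.50 ± 0.09).

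**Figure D3:**
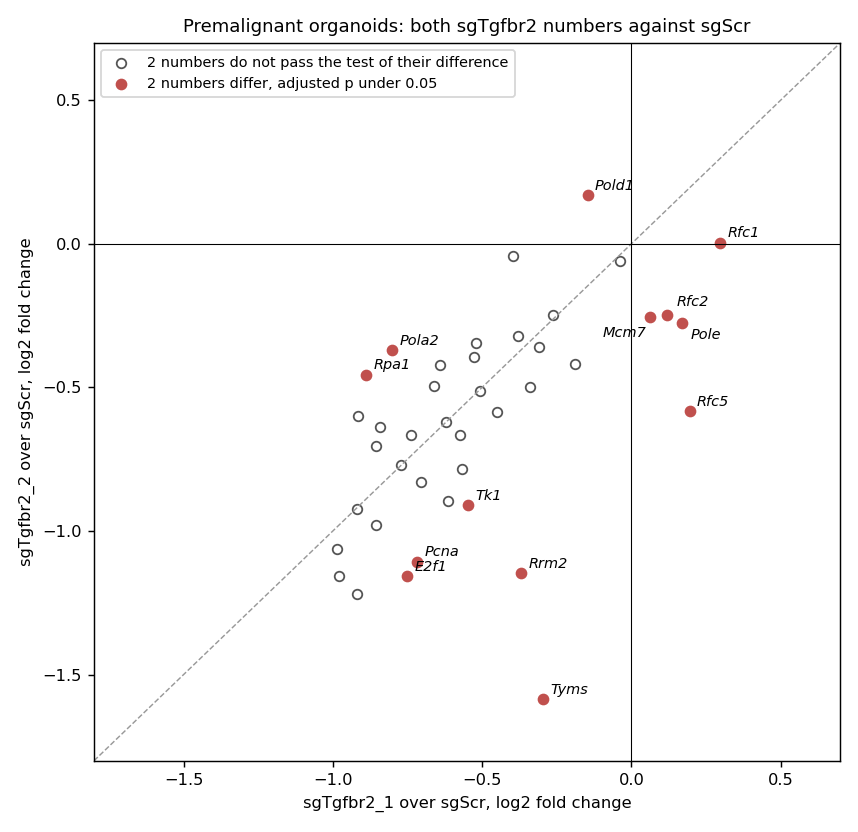
Log2 fold change of each of the 41 genes in sgTgfbr2_2 (vertical) and in sgTgfbr2_1 (horizontal), both against the same 3 premalignant sgScr libraries. Filled points are the 13 genes that differed between the numbers. Tyms lies lowest on the vertical axis, and Rfc5 lies above 0 in sgTgfbr2_1 and below 0 in sgTgfbr2_2.

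In the libraries labelled tumor, 28 of the 41 genes were higher with sgTgfbr2 and 4 were lower, with a median log2 fold change of 0.83. Of 15091 genes tested, 29.8% were higher and 30.5% lower. DESeq2 called 27 higher and 4 lower, as did the authors' deposited table. Scaled by library total without TMM, 32 were higher and 1, Prim1, was lower, while the median of all genes moved to 0.26 and 64.3% rather than 49.4% of all calls were higher.

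Cell type markers differed between these groups as well. Suprabasal squamous markers, all 6 with counts in every library, summed to 11709 to 11833 CPM in tumor sgTgfbr2 and 128124 to 140892 CPM in tumor sgScr, and basal markers to 10438 to 10990 CPM in tumor sgTgfbr2 and 3350 to 3779 CPM in tumor sgScr. All 10 skeletal muscle genes had counts in tumor sgScr and 5 or 6 of them in tumor sgTgfbr2. Gastric gland markers summed to 28235 and 31309 CPM in tumor sgTgfbr2 (8 of 8 genes with counts) and 0 to 0.211 CPM in tumor sgScr. Immune markers stood at 756 and 788 CPM in tumor sgTgfbr2 and 923 to 939.7 CPM in tumor sgScr. The part of these markers, of the fibroblast and endothelial markers and of Cdkn2a in the tumor result was not tested, and the guide and the mix of cells cannot be told apart.

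Licensing and the MCM ring rose together in tumor sgTgfbr2. Cdt1 (chr8:122568015-122573554, plus strand) had 27.3 and 28.4 CPM in sgTgfbr2 and 5.28, 3.48 and 5.29 CPM in sgScr. Both sgTgfbr2 libraries stood several times above every sgScr library, and the change of 2.29 ± 0.22 was the highest of the 41 genes (adjusted p = 9.99e-09). All 6 MCM subunits were higher, by 0.64 to 1.79. Mcm4 had 73.9 and 76.7 CPM in sgTgfbr2 and 16.0, 18.3 and 19.1 CPM in sgScr (1.79 ± 0.15, adjusted p = 1.06e-09). Mcm7, not called in the premalignant comparison, had 104 and 98.7 CPM in sgTgfbr2 and 35.4, 34.9 and 32.4 CPM in sgScr (1.28 ± 0.14, adjusted p = 5.70e-08). Neither gene's groups overlapped. Cdc6 was the licensing factor that did not pass (-0.24 ± 0.41, adjusted p = 0.634).

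Further along the pathway, 5 of 6 clamp and loader genes were higher, all but Rfc1. Pcna had 148 and 145 CPM in sgTgfbr2 and 61.3, 75.4 and 70.4 CPM in sgScr (0.80 ± 0.14, adjusted p = 2.92e-05). Fen1 had 40.3 and 37.8 CPM in sgTgfbr2 and 13.1, 12.9 and 10.6 CPM in sgScr (1.39 ± 0.18, adjusted p = 7.65e-07). Ccne1 had 25.4 and 19.5 CPM in sgTgfbr2 and 6.70, 4.73 and 5.29 CPM in sgScr (1.73 ± 0.23, adjusted p = 1.20e-06). In each of these 3 genes both sgTgfbr2 libraries lay above every sgScr library. E2f1 had 6.997 and 6.38 CPM in sgTgfbr2 and 3.91, 2.97 and 2.73 CPM in sgScr. Its groups did not overlap, but the call (0.78 ± 0.32, adjusted p = 0.0436) was lost by DESeq2 (0.0646) and with a replicate block (0.201). It was also lost without sgScr replicate 2 (0.118) or 3 (0.133), but not without sgScr replicate 1. Without sgTgfbr2 replicate 1 or 2, which leaves 1 library in that group, the change was 0.67 or 0.87.

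Chromatin assembly factor 1, which deposits histones behind the fork, split by subunit. Chaf1b had 33.6 and 35.5 CPM in sgTgfbr2 and 6.81, 6.63 and 7.36 CPM in sgScr, a change of 2.03 ± 0.19 (adjusted p = 5.09e-09). Chaf1a, its partner in the complex, had 31.3 and 27.4 CPM in sgTgfbr2 and 36.8, 34.4 and 31.6 CPM in sgScr, a change of -0.51 ± 0.16 (adjusted p = 0.0110). Chaf1b thus stood well above sgScr and Chaf1a just below it. The call of Chaf1a was lost without sgTgfbr2 replicate 2 (adjusted p = 0.104) and with library totals (adjusted p = 0.250). Ubxn6, on the other strand, covers 52.5% of the exon bases of Chaf1a and had 139 to 162 CPM in tumor sgTgfbr2 and 115 to 119 CPM in tumor sgScr, so the counts of Chaf1a are uncertain.

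The other genes lower in tumor sgTgfbr2 were Prim1, Pola1 and Rpa1, which prime or bind single-stranded DNA. Prim1 had 18.3 and 16.2 CPM in sgTgfbr2 and 22.2, 27.8 and 23.5 CPM in sgScr (-0.79 ± 0.19, adjusted p = 0.00110). Pola1 had 10.1 and 11.4 CPM in sgTgfbr2 and 15.1, 12.7 and 14.6 CPM in sgScr (-0.67 ± 0.21, adjusted p = 0.00944). Rpa1 had 49.6 and 54.6 CPM in sgTgfbr2 and 55.2, 57.2 and 58.9 CPM in sgScr (-0.42 ± 0.14, adjusted p = 0.0142). All 3 lay below every sgScr library, Rpa1 by a narrow margin. With library totals Pola1 (adjusted p = 0.126) and Rpa1 (adjusted p = 0.441) were no longer called. Rpa1 was also lost without sgScr replicate 2 (0.0532) and with a replicate block (0.0683). Without sgTgfbr2 replicate 1, which leaves 1 library in that group, Rpa1 changed by -0.39. Pola2, the regulatory partner of Pola1, went the other way, with 33.8 and 30.9 CPM in sgTgfbr2 and 12.04, 12.5 and 9.50 CPM in sgScr (1.22 ± 0.19, adjusted p = 1.07e-05).

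Of the 90 further replication and G1/S genes, 37 were higher and 9 lower in tumor sgTgfbr2. Gmnn, geminin, which binds Cdt1, was higher by 2.08 ± 0.19, Dut, which removes dUTP, by 1.76 ± 0.17 and Dbf4, the activator of the Cdc7 kinase, by 1.63 ± 0.17. Cdkn1a, the CDK inhibitor p21, was lower (-0.95 ± 0.13). Mitosis genes were lower more often than higher, 14 and 6 of 29, with a median of -0.41 under TMM scaling, while their sum in CPM of the library total was 799 to 818 in sgTgfbr2 and 729 to 787 in sgScr. Cenpf (-1.43 ± 0.18), Top2a (-1.06 ± 0.14) and Mki67 (-0.52 ± 0.14) were lower, and Cenpa, the centromeric histone (1.40 ± 0.15), and Cdk1 (0.83 ± 0.17) were higher.

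The difference between the stages was itself tested over the 12 premalignant and tumor libraries. The sgTgfbr2 effect in tumor minus that in premalignant libraries was positive for 32 of the 41 genes and negative for 0 past the threshold, with a median of 1.43, against 25% positive and 24.5% negative of 15671 genes. DESeq2 and limma-voom each gave 31 positive and 0 negative, and no tool had a negative difference at an unadjusted p under 0.05. Whatever their p, 31 genes had folds of opposite sign in the 2 stages. The largest differences were in Cdt1 (2.71 ± 0.20, adjusted p = 2.78e-08), Chaf1b (2.64 ± 0.18, adjusted p = 1.97e-08), Ccne1 (2.64 ± 0.21, adjusted p = 1.08e-07) and Mcm4 (2.55 ± 0.16, adjusted p = 6.62e-09), beside Orc1 (2.71 ± 0.40). Prim1 (-0.28 ± 0.21), Pola1 (0.06 ± 0.21), Chaf1a (0.18 ± 0.17) and Rpa1 (0.22 ± 0.20) did not pass, and they were called lower with sgTgfbr2 at both stages. Mitosis genes had 8 positive and 12 negative differences of 29. The tumor markers given above move with this contrast too.

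**Figure D4:**
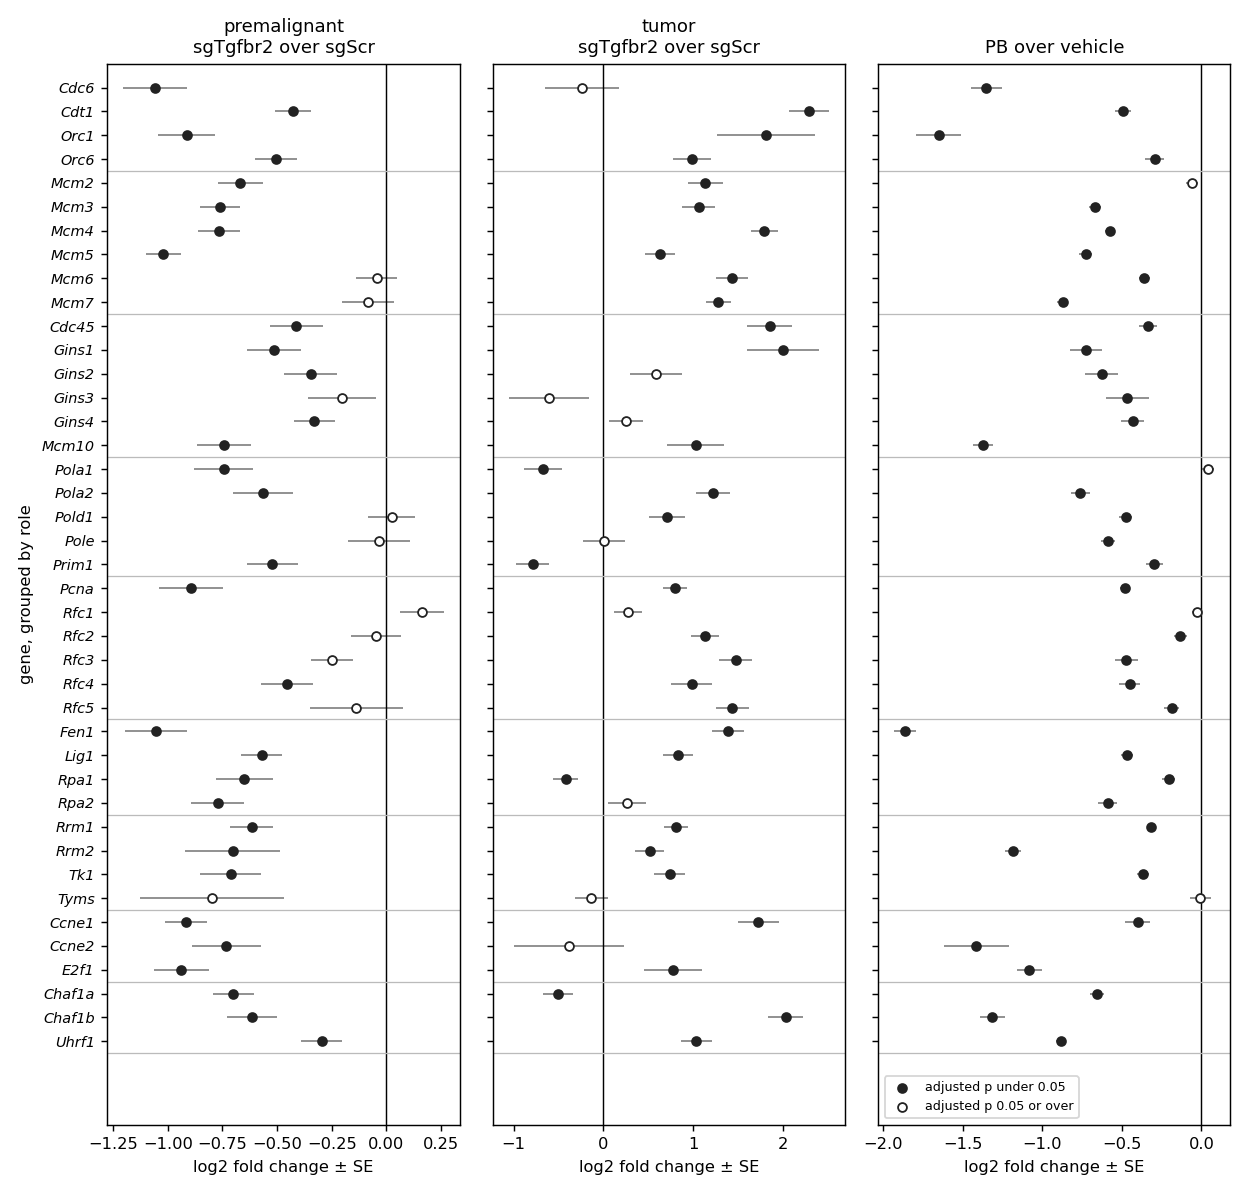
Log2 fold change with its standard error for each of the 41 genes, grouped by role, in premalignant sgTgfbr2 over sgScr (left), tumor sgTgfbr2 over sgScr (middle) and PB over vehicle (right), with a separate scale in each panel. Filled points passed an adjusted p of 0.05, and the filled points lie left of 0 in the left and right panels and, for 28 of 32, right of 0 in the middle panel.

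Nearly the whole set was lower with PB in tumor sgTgfbr2 organoids. Against vehicle, 37 of the 41 genes were lower and 0 higher, with a median log2 fold change of -0.48, where 36.8% of 12801 genes were lower and 36.5% higher. DESeq2 and limma-voom called 37 lower, none of the 3 tools called a gene higher, adjusted or unadjusted, and the authors' deposited table had 36 lower and 0 higher. Replicates in this table lay close together, with a chi-square per degree of freedom of 1.51 to 2.03 against 6.42 to 21.3 in the other tables, so the small p-values rest on a spread that may be technical. With library totals all 41 were lower, as the median of all genes moved to -0.15 and 34.9% rather than 49.7% of calls were higher.

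Fen1 changed most. It had 12.3, 13.1 and 12.6 CPM with PB and 51.1, 48.6 and 52.4 CPM with vehicle. The PB libraries lay within 1 CPM of each other and far under the vehicle libraries, a change of -1.86 ± 0.07 (adjusted p = 4.42e-35). Orc1 followed at -1.65 ± 0.14, Ccne2, cyclin E2, at -1.42 ± 0.20, Mcm10 at -1.37 ± 0.06 and Cdc6 at -1.35 ± 0.10. Fen1 shares 78.8% of its exon bases with Gm10143 on the other strand, so its counts are uncertain here too. Ccne2 shares 17.4% of its exon bases with Ints8 on the other strand, and Orc1 10.8% with Gm12743.

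Uhrf1 had the smallest adjusted p of the 41 genes (5.24e-36), with 95.5, 96.6 and 95.3 CPM under PB and 188, 201 and 196 CPM with vehicle (-0.88 ± 0.03). Mcm7 had 76.2, 73.2 and 72.2 CPM under PB and 148, 149 and 150.0 CPM with vehicle (-0.87 ± 0.04, adjusted p = 3.77e-33). E2f1 had 13.1, 12.02 and 14.0 CPM under PB and 30.7, 30.8 and 29.7 CPM with vehicle (-1.08 ± 0.08, adjusted p = 6.69e-20). The groups of all 3 genes lay apart. Rrm2 had 37.6, 35.1 and 32.9 CPM under PB and 90.1, 89.5 and 85.0 CPM with vehicle (-1.19 ± 0.05, adjusted p = 1.33e-32). Rrm1, its partner, had 199, 195 and 196 CPM under PB and 267, 277 and 268 CPM with vehicle (-0.32 ± 0.03, adjusted p = 4.27e-17). Chaf1b had 11.5, 12.2 and 13.5 CPM under PB and 35.2, 34.2 and 32.3 CPM with vehicle (-1.32 ± 0.08, adjusted p = 4.43e-24). These groups did not overlap either.

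The other 4 genes did not pass under PB. Tyms had 28.1, 26.3 and 28.7 CPM with PB and 29.1, 31.6 and 31.3 CPM with vehicle (-0.01 ± 0.07, adjusted p = 0.909). Pola1 had 69.5, 68.2 and 65.2 CPM with PB and 70.2, 73.9 and 73.5 CPM with vehicle (0.04 ± 0.04, adjusted p = 0.421). Both sets of CPM were slightly lower with PB, and the sign of Pola1 turned with library totals (-0.10, adjusted p = 0.0314). Mcm2 (-0.06 ± 0.04) and Rfc1 (-0.03 ± 0.03) did not pass either. A p that misses the threshold does not show that these genes were equal in the groups.

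Among the 90 further genes, 51 were lower and 22 higher under PB, and the D-type cyclins were among the lower. Ccnd1 had 432, 437 and 424 CPM with PB and 816, 809 and 801 CPM with vehicle (-0.77 ± 0.02), and Ccnd2 had 389, 403 and 397 CPM with PB and 804, 782 and 782 CPM with vehicle (-0.86 ± 0.02). Cdkn1b was higher, at 192, 191 and 182 CPM with PB and 114, 116 and 120.1 CPM with vehicle (0.83 ± 0.03). Mitosis genes were lower in 19 of 29 and higher in 5, with a median of -0.17 beside -0.48 for the 41 genes. Mki67 changed by -0.17 ± 0.02. Suprabasal markers summed to 771 to 781 CPM with PB and 1654 to 1688 CPM with vehicle and basal markers to 8096 to 8172 CPM with PB and 8876 to 9044 CPM with vehicle, and their part was not tested.

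Set side by side, 29 genes were lower in premalignant sgTgfbr2 and lower under PB, and 21 of the 41 were lower in premalignant sgTgfbr2, higher in tumor sgTgfbr2 and lower under PB. Of all genes tested in the comparisons concerned, 8.37% and 2.43% had these patterns. Most of the overlap is fixed by the separate counts, 31, 28 and 37 of the 41. Across the 41 genes the folds of the premalignant and PB comparisons, which share no library, correlated with a Pearson r of 0.44 and a Spearman rho of 0.37, as a description over genes that are not independent. Fen1, Orc1, Cdc6, E2f1 and Mcm5 stood low in both, and Pola1 and Mcm2 were called in the premalignant comparison and not under PB.

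Levels within the MCM ring were compared per kb of exon, over all annotated exons of a gene. On that scale Mcm2 was the lowest of the 6 subunits in all 18 libraries. Its rank depends on the length used, 6.956 kb against 3.589 to 4.666 kb for the others, and in CPM not divided by length Mcm2 stood above Mcm5 and Mcm7 with PB. The highest was Mcm7 in premalignant sgTgfbr2 and in both tumor groups, Mcm3 in premalignant sgScr, and Mcm4 with PB and with vehicle. In premalignant sgTgfbr2 the highest subunit stood 3.25 to 3.76 times above Mcm2, and in sgScr 2.93 to 3.28 times. With PB the spread was the smallest, 2.24 to 2.37 times, against 3.24 to 3.50 times with vehicle, and Mcm2 was the subunit not called under PB. Of all 41 genes, Pcna was the most abundant per kb in each of the 6 groups, from 28.8 CPM per kb in tumor sgScr to 149 CPM per kb in premalignant sgScr. The levels were set side by side from tables deposited separately and were not tested across them.

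**Figure D5:**
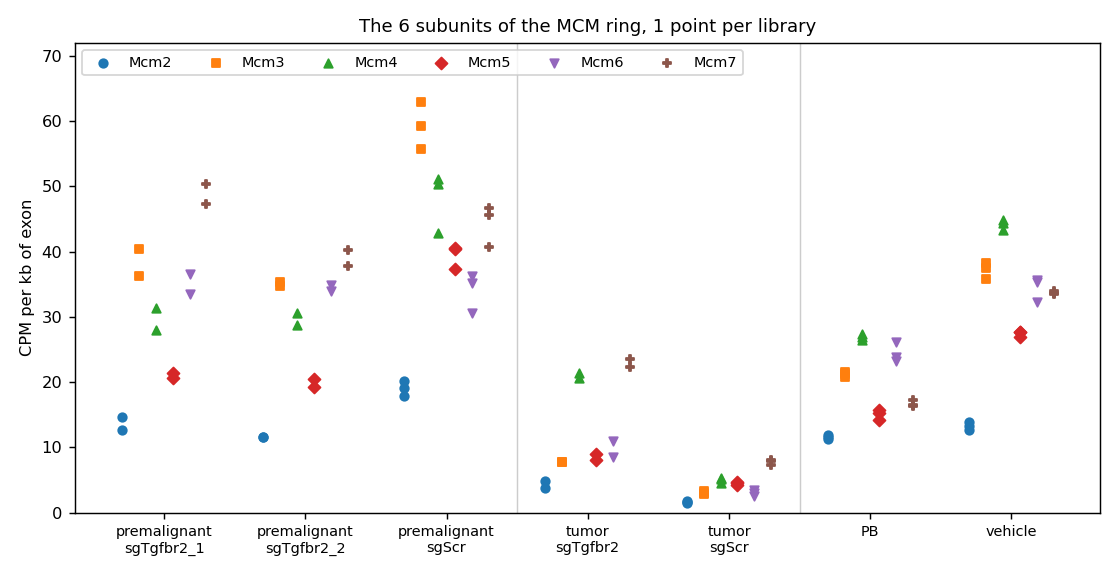
CPM per kb of exon of the 6 MCM subunits, with 1 point per library. Mcm2 is the lowest in all 18 libraries, and the order of the others differs between groups, with Mcm3 on top in premalignant sgScr and Mcm7 in premalignant sgTgfbr2.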

How the data were processed

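Bulk RNA-seq of 18 mouse organoid libraries was read from 3 deposited tables. The authors deposited whole-number counts per gene, normalized values, log2 fold changes and p-values after adjustment, as the file headers name them. STAR 2.6.0a, DESeq2 1.26.0 and mm10 are named in the submitters' processing notes. The sources used here do not name the counting program, its strand setting or its annotation. The 18 normalized columns were not used. The authors' deposited log2 and adjusted p-value columns gave only the counts credited to their table.

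Counts were analysed with R 4.3.3 and edgeR 4.0.16: filterByExpr with a minimum count of 10, TMM scaling, the quasi-likelihood test, two-sided, and Benjamini-Hochberg adjustment over all genes tested at a threshold of 0.05. Each comparison used its own table, the stage difference used both sgTgfbr2 tables, and standard errors are the fold over the square root of F. The scripts were tested on simulated data. Replicates were compared by chi-square per degree of freedom (1.51 to 2.03 within the PB and vehicle groups, 6.42 to 21.3 within the others), and none were merged. Gene positions and exon lengths are from GENCODE M21 (GRCm38), and promoters from RefSeq (GRCm38.p6), which gave no entry for Mcm4, Gins1, Gins2, Gins4, Rfc2, Pole and Ccne2. Alternatives were DESeq2 1.42.0, limma-voom 3.58.1, library totals, no filter, a filter of 1 CPM, a log2 fold change of 1 or more in size, a replicate block, each replicate left out and each sgTgfbr2 number alone.

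The 41 genes and the other lists were chosen with earlier results of these data known. Named with values in every library were 22 genes: the one with the highest mean CPM in each of 9 roles, and per comparison those past the threshold with the 3 smallest p-values in each direction and up to 4 against the direction of most. Other genes named were chosen after their values were seen.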

Additional observations from a re-analysis of the deposited data

Results flagged for a closer look

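The sgTgfbr2 effect differed between tumor and premalignant libraries, by edgeR's test of the difference, for 17 of the named genes. The tumor minus premalignant difference, in log2, was positive for each of them, at Mcm7 (1.36), Gins4 (0.58), Cdt1 (2.71), Pcna (1.68), Pold1 (0.67), Rrm1 (1.42), E2f1 (1.71), Uhrf1 (1.33), Mcm5 (1.65), Ccne1 (2.64), Mcm3 (1.82), Mcm4 (2.55), Chaf1b (2.64), Fen1 (2.43), Pola2 (1.77), Rfc5 (1.57) and Rrm2 (1.22). Each passed an adjusted p of 0.05, but with a replicate block the calls of Pold1 (adjusted p = 0.0709) and Gins4 (adjusted p = 0.0801) were lost. The call of Gins4 was lost without premalignant sgScr replicate 1 or 2, tumor sgScr replicate 1 or 3, or either tumor sgTgfbr2 replicate, with adjusted p of 0.0523 to 0.0921. The markers of muscle, squamous and gastric cells that separate the tumor groups move with this contrast, and their part was not tested.

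The premalignant sgTgfbr2 numbers differed from each other in 9 of the named genes. The difference of sgTgfbr2_2 minus sgTgfbr2_1, in log2, was Mcm7 (-0.32), Pcna (-0.39), Pold1 (0.32), Rpa1 (0.43), E2f1 (-0.41), Pola2 (0.43), Tyms (-1.29), Rfc5 (-0.78) and Rrm2 (-0.78). Tyms, Rfc5 and Rrm2 had the smallest p-values, and several others lost their call when a single library was left out.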

How the results depend on the processing

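Of 150 recomputed counts of called genes, 134 stayed within 1.5 times, counts of 0 that stayed at 0 included. Of 1650 recomputed values of named genes, 1520 kept their side of the threshold, 106 lost the call and 22 gained it. The other 2 turned in sign and were called after the turn. With each replicate left out, lower calls ranged over 25 to 31 (premalignant), 3 to 4 (tumor), 37 to 38 (PB), 3 to 14 (sgTgfbr2_2 over sgTgfbr2_1) and 0 to 0 (stage), and higher calls over 0 to 0, 26 to 29, 0 to 0, 0 to 4 and 30 to 33. Fewer genes pass a larger fold. At a log2 fold change of 1 or more in size, 3 genes were lower in premalignant sgTgfbr2, against 437 of all 13098 genes tested. In tumor sgTgfbr2, 18 were higher and 0 lower, against 2499 and 2927 of 15091. Under PB, 8 were lower, against 1087 of 12801. In sgTgfbr2_2 over sgTgfbr2_1, 0 were higher and 1 lower, against 525 and 333 of 13438. With sgTgfbr2_1 alone 2 genes were higher than sgScr, and Rfc5 turned to 0.23 (adjusted p = 0.0460). With library totals 1 gene was lower in tumor sgTgfbr2, and Pola1 under PB turned to -0.10. The cause was not tested.

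Replicate numbers are shared between groups, and the labels do not say whether same-numbered libraries were handled together. Such libraries did not deviate together (correlations of -0.09 to 0.13). With 2 or 3 libraries per group, these correlations cannot show that the libraries were unpaired. With the replicate block, lower and higher calls were 28 and 0 (premalignant), 3 and 25 (tumor), 37 and 0 (PB), 14 and 5 (sgTgfbr2_2 over sgTgfbr2_1) and 0 and 28 (stage).

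Depth limits the lowest genes, such as Orc1 at 0.422 CPM in 1 tumor sgScr library.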
